A study of Homo sapiens with 8 samples.

Results

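The genes described here encode the nuclear part of the oxidative phosphorylation system. They were the 84 of 25369 measured genes whose symbol carries a subunit name of complexes I to V or names cytochrome c or cytochrome c1. By complex they were 36 genes of complex I, 4 of complex II, 11 of complex III, 15 of complex IV, 17 of complex V and CYCS, the gene of cytochrome c. NDUFA4 was counted with complex IV, to which its protein is now assigned. The symbols are those of the files: genes written ATP5A1, ATP5J or ATP5J2 here now have other names (ATP5F1A, ATP5PF and ATP5MF). Choosing by symbol used no measured value.

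Oxidative phosphorylation turns the energy of nutrients into ATP at the inner mitochondrial membrane. Complex I takes electrons from NADH and complex II takes them from succinate, and both pass them through ubiquinone to complex III. Cytochrome c carries the electrons on to complex IV, which reduces oxygen, and complex V, the ATP synthase, uses the resulting proton gradient. Most subunits are encoded in the nucleus, a few in mitochondrial DNA. Complex II is the exception in that all of its subunits are nuclear, and it also serves as an enzyme of the citric acid cycle. Some complex IV subunits also have isoforms restricted to heart, muscle or testis.

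RNA sequencing was done on MDA-MB-231, an established mesenchymal triple-negative human breast cancer line, in 8 libraries of total RNA from 4 groups of 2. SUN2KO cells had SUN2 knocked out, SUN2 being an inner nuclear membrane protein that joins the nucleus to the cytoskeleton. Kashlid cells carried SUN2 without residues 569 to 585, a deletion designed to break its link to Nesprin-2G. LBD cells carried SUN2 without residues 1 to 139, to break its link to the lamins, and WT cells were unmodified. The labels give no drug or time point, and do not say whether the truncations stood in knockout or wild-type cells, how they were introduced, whether a line was 1 clone, or whether replicates were separate cultures. The p-values below therefore reflect the variation among these particular libraries, possibly only technical, and a difference between lines cannot be told apart from one between clones.

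Libraries held 16570099 to 18814795 counts. SUN2 itself had 474 and 564 counts in SUN2KO, 643 and 603 in Kashlid, 562 and 579 in LBD, against 1408 and 1441 in WT, so its transcript was lower in all 3 modified lines. Of the markers of this cell line, VIM, CD44, CAV1, AXL and ITGB1 averaged 49.6 to 931 CPM (counts scaled by library size and TMM factor). ITGB1 averaged 541, 468 and 529 CPM in SUN2KO, Kashlid and LBD and 931 in WT. CAV1 averaged 62, 49.6 and 57 CPM and 91.5 in WT, and VIM 299, 300 and 337 CPM and 404 in WT. CD44 averaged 323, 339 and 414 CPM and 333 in WT, and AXL 105, 103 and 102 CPM and 108 in WT. The luminal markers ESR1, PGR and GATA3 were below 1 CPM in every group. Of the other listed luminal markers, EPCAM averaged 8, 4.81 and 5.09 CPM in SUN2KO, Kashlid and LBD and 3.16 in WT, and CDH1 0.969, 1.45 and 1.06 CPM and 0.581 in WT. ERBB2, 49.1 to 56.4 CPM, and CD68, 41.4 CPM in LBD and 16.4 CPM in WT, were present although listed as luminal and leukocyte markers, while PTPRC averaged at most 0.35 CPM and CD3E was at 0. SALL4, listed as a marker of the HEK293T cells grown in the same study, was at 11.4 to 12.1 CPM in the modified lines and 21.6 CPM in WT. LIN28B, of the same list, averaged 0.754, 0.496 and 0.676 CPM in SUN2KO, Kashlid and LBD and 0 in WT, and LIN28A and NEFM were at 0 in the modified lines and 0.0284 and 0.0852 CPM in WT. The part of these marker differences in the results was not tested.

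Subunit transcripts were more often lower than higher in each modified line, and the shift was small for most genes. Of the 84 genes, 79 passed the filter on low counts and were tested with edgeR's quasi-likelihood test, with Benjamini-Hochberg adjustment over all 14016 genes and a call at an adjusted p under 0.05. SUN2KO had 27 subunit genes lower and 7 higher than WT, so 34.2% were lower, where 36.7% of all tested genes were called, 19.1% lower and 17.5% higher. In Kashlid 28 were lower and 5 higher than WT, or 35.4% lower against 44.5% of all genes called, 22.7% lower and 21.7% higher. LBD had 41 lower and 5 higher, or 51.9% lower, against 40.0% of all genes called, 21.0% lower and 19.0% higher. The median log2 fold change of the 79 genes was -0.09 in SUN2KO, -0.10 in Kashlid and -0.19 in LBD, where the median of all tested genes was 0.00 in SUN2KO and LBD and 0.01 in Kashlid. These medians are the same with COX7B2, which had no counts in the modified lines, set at its bound. With library size alone they were -0.08, -0.07 and -0.15, where the medians of all tested genes also moved, to 0.007, 0.044 and 0.035. The 3 comparisons share the WT libraries, so an error in those libraries would enter all of them. Leaving out WT replicate 1 gave subunit medians of -0.060, -0.058 and -0.171 for SUN2KO, Kashlid and LBD, beside all-gene medians of 0.002, 0.011 and 0.005. Leaving out WT replicate 2 gave -0.140, -0.118 and -0.209, beside -0.001, 0.010 and 0.007. The SUN2KO median was -0.086 when SUN2KO replicate 2 was left out. Fewer subunit genes passed in each of these fits, and fewer of all genes did too.

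**Figure D1:**
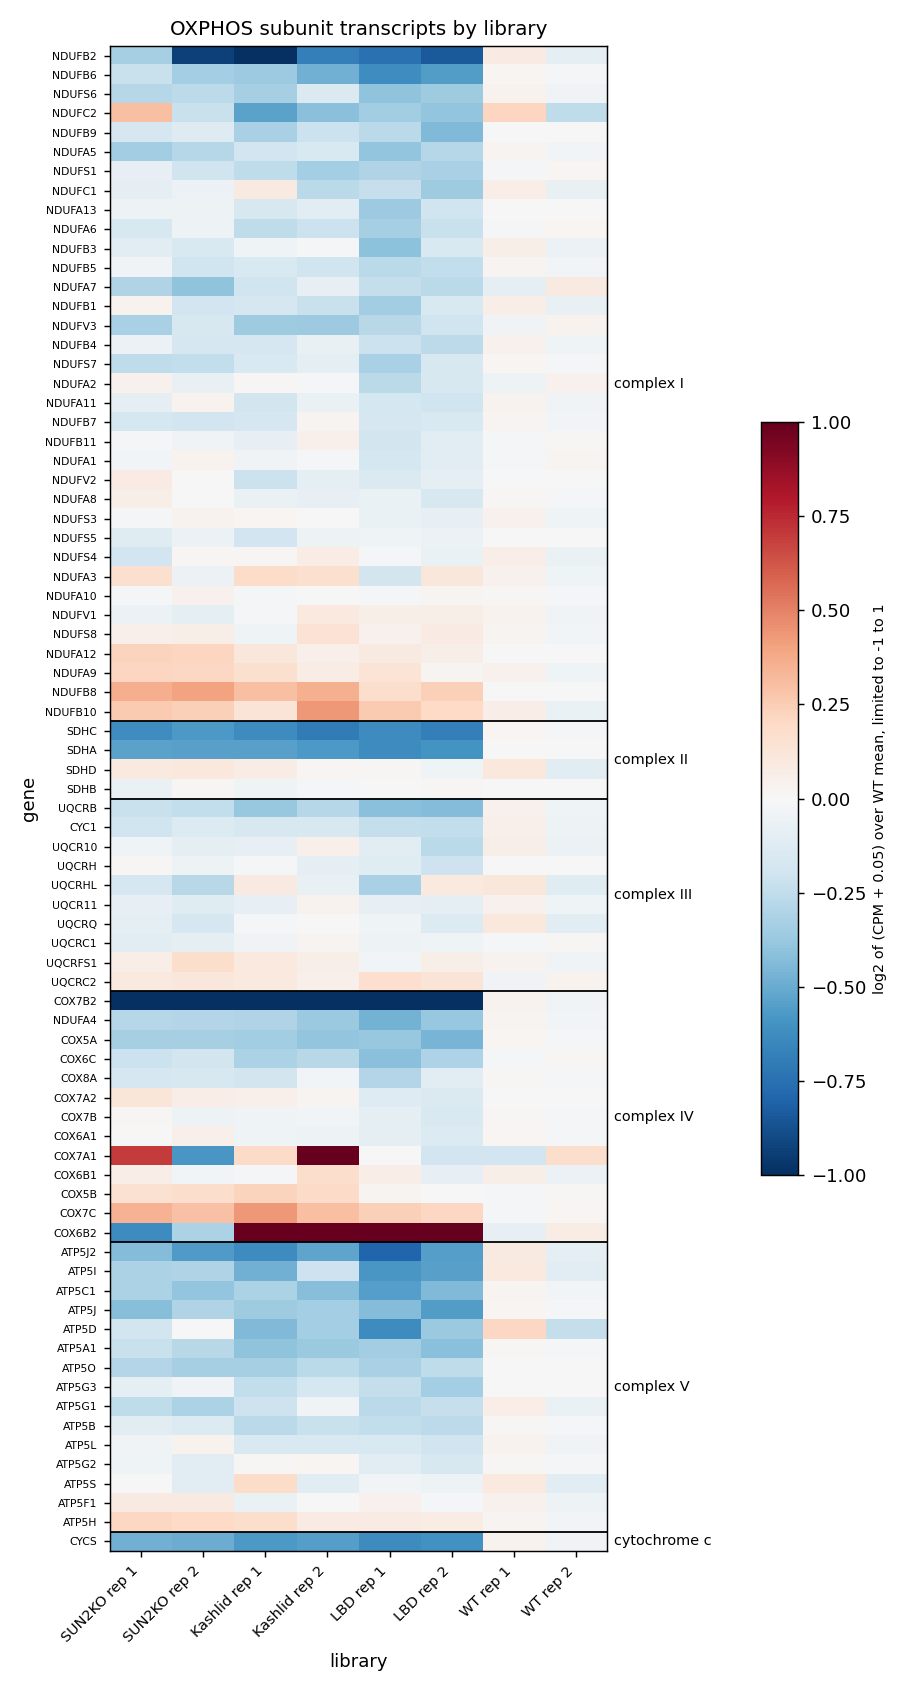
Level of 78 of the 79 tested subunit genes (y axis, grouped by complex and ordered by the LBD fold change) in each library (x axis), as log2 of CPM plus 0.05 over the WT mean, with colours limited to -1 and 1; blue is lower than WT and red higher. Blue runs across all 6 modified libraries for SDHA, SDHC, CYCS and most of complex V, COX7B2 is at the limit in all 6, and COX6B2 is at the upper limit in the 4 Kashlid and LBD libraries only.

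The summed CPM of a complex is relative to the other counts of its library. In bulk RNA it also cannot tell fewer expressing cells from less RNA per cell. Summed over all 84 genes, the level was 8774 and 8708 CPM in SUN2KO, 8429 and 8600.1 in Kashlid, 8215 and 8171 in LBD, against 9584 and 9361 in WT, so all 6 modified libraries lay below both WT libraries. The largest relative gaps were those of cytochrome c, at 71.2%, 67.8% and 65.3% of WT in SUN2KO, Kashlid and LBD, and of complex II, at 76.6%, 75.2% and 73.8%. Complex V stood at 91.2%, 85.8% and 83.99% of WT, and complex I at 95.95%, 94.4% and 90.3%. Complex III, at 95.1%, 96.01% and 92.3%, and complex IV, at 98.99%, 98.6% and 91.5%, stood closer to WT than complex V in each line. The groups of complex IV did not all separate: its sums were 1149 and 1139 CPM in SUN2KO, 1144 and 1135 in Kashlid, 1063 and 1051 in LBD, against 1165 and 1146 in WT, and only the LBD libraries lay below both WT libraries by more than the WT libraries differed.

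**Figure D2:**
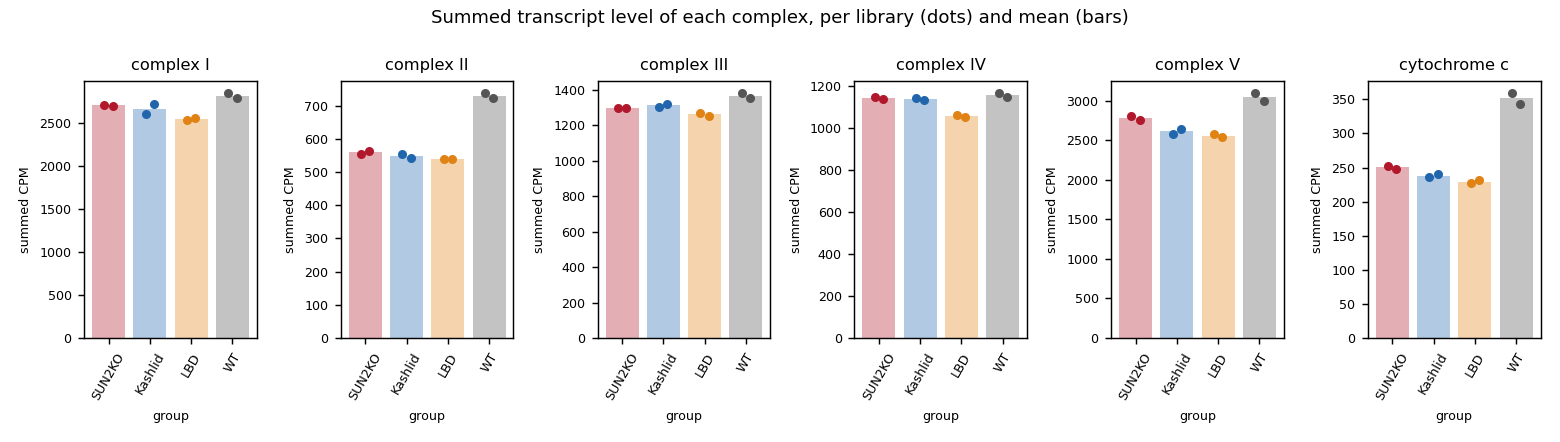
Summed CPM of the subunit genes of each complex (y axis, starting at 0) by group (x axis); dots are the 2 libraries of a group and bars their mean. Complex II and cytochrome c are at 73.8% and 65.3% of WT in LBD, and complex IV is at 91.5%.

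By complex, the counts of lower genes stand beside 19.1%, 22.7% and 21.0% of all tested genes lower in SUN2KO, Kashlid and LBD. Complex V had the largest share of lower genes among complexes I, III, IV and V, with 8 in SUN2KO, 9 in Kashlid and 12 in LBD of 15 tested, or 53.3%, 60% and 80%. Complex I had 10 in SUN2KO, 10 in Kashlid and 18 in LBD of 36 lower, complex III 2 in SUN2KO, 2 in Kashlid and 3 in LBD of 10, and complex IV 4 in SUN2KO, 4 in Kashlid and 5 in LBD of 13. The shares of complex III, 20% in SUN2KO and 20% in Kashlid, were near those of all genes. In complex II, 2 of 4 were lower in each line, and CYCS was lower in each. The median fold change of complex V was -0.12, -0.25 and -0.29 in SUN2KO, Kashlid and LBD, and that of complex III was -0.10, -0.01 and -0.09. No test of a difference between complexes was made.

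**Figure D3:**
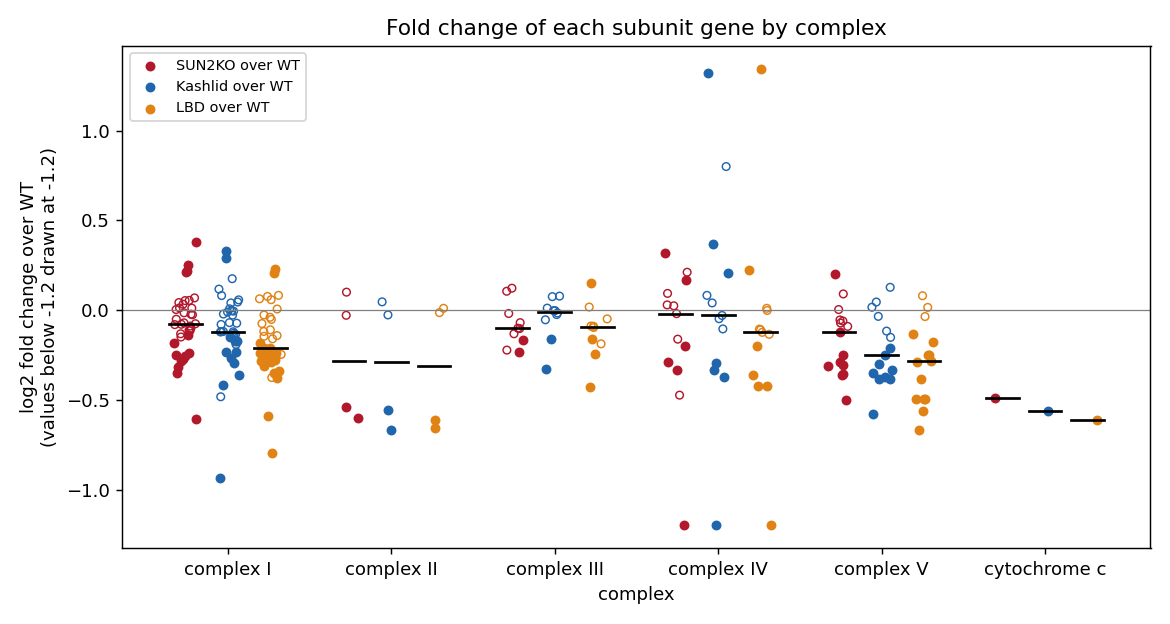
Log2 fold change over WT (y axis) of each tested subunit gene by complex (x axis), for SUN2KO, Kashlid and LBD from left to right; filled points passed the test, open points did not, bars are medians, and COX7B2 is drawn at -1.2. In complex V, 8, 9 and 12 of 15 genes are filled and below 0, and in complex II the same picture splits into SDHA and SDHC below and SDHB and SDHD near 0.

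The 4 subunits of complex II split into a pair that fell and a pair that did not pass. SDHA, the flavoprotein that oxidises succinate (chromosome 5, 218356 to 256814 on hg19), had 282 and 281 CPM in SUN2KO, 282 and 275 in Kashlid, 265 and 271 in LBD, against 409.6 and 410.3 in WT. All 6 modified libraries lay below both WT libraries and close to each other. The change was -0.54 ± 0.04 in SUN2KO, -0.56 ± 0.04 in Kashlid and -0.61 ± 0.04 in LBD (log2 fold change over WT ± SE, adjusted p = 9.55e-09, 3.49e-09 and 1.12e-09). SDHC, which with SDHD anchors the complex in the membrane and binds ubiquinone (chromosome 1, 161284166 to 161334535), had 87.8 and 90.7 CPM in SUN2KO, 87.2 and 83.2 in Kashlid, 87.2 and 83.9 in LBD, against 137 and 133 in WT, again with no overlap between any modified line and WT. Its change was -0.60 ± 0.06 in SUN2KO, -0.67 ± 0.06 in Kashlid and -0.66 ± 0.06 in LBD (log2 fold change over WT ± SE, adjusted p = 7.4e-08, 9.92e-09 and 1.37e-08). The partner anchor SDHD had 79.9 and 80.5 CPM in SUN2KO, 78.8 and 75.7 in Kashlid, 75.6 and 72.5 in LBD, against 80.3 and 69.4 in WT, and the WT libraries differed from each other by more than the modified libraries did. SDHB, the iron-sulfur subunit between SDHA and the anchors, had 105 and 111 CPM in SUN2KO, 107 and 109.6 in Kashlid, 111 and 112 in LBD, against 111 and 110.2 in WT, with SUN2KO and LBD overlapping WT and both Kashlid libraries just below it. Neither passed in any line: for SDHD the change was 0.10 ± 0.07 in SUN2KO, 0.05 ± 0.07 in Kashlid and -0.01 ± 0.07 in LBD (adjusted p = 0.274, 0.624 and 0.896), and for SDHB -0.03 ± 0.06 in SUN2KO, -0.03 ± 0.06 in Kashlid and 0.01 ± 0.06 in LBD (adjusted p = 0.725, 0.727 and 0.912). SDHA has pseudogene copies, so its reads could be shared with them. SDHAP1 averaged 28.2 CPM in SUN2KO, 28.5 in Kashlid and 27.7 in LBD, against 29.4 in WT, which is far below SDHA. SDHAP2 averaged 28.4, 29.6 and 27.97 CPM in these lines and 28.8 in WT, and SDHAP3 6.28, 6.66 and 7.94 CPM and 10.02 in WT. SDHC overlaps C1orf192 in the annotation, which held 405, 468 and 438 counts over both libraries in SUN2KO, Kashlid and LBD and 525 in WT, against 2912 to 4652 for SDHC.

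CYCS encodes cytochrome c, which carries electrons between complexes III and IV and, when released from mitochondria, triggers caspase activation (chromosome 7, 25158270 to 25164980). It had 252 and 248 CPM in SUN2KO, 236 and 239.8 in Kashlid, 227 and 231 in LBD, against 359 and 344 in WT. Both WT libraries were above all others, and within the modified lines the LBD libraries were the lowest. The change was -0.49 ± 0.05 in SUN2KO, -0.56 ± 0.05 in Kashlid and -0.61 ± 0.05 in LBD (log2 fold change over WT ± SE, adjusted p = 7.49e-08, 6.31e-09 and 2.02e-09). The differences between the modified lines did not pass, with LBD at -0.13 ± 0.05 (adjusted p = 0.0856) against SUN2KO.

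The start regions of SDHA and CYCS are shown because these genes are among the deepest falls of well-expressed members with an entry in the promoter table, and to set against those of COX7B2 and COX6B2 below. Each runs from 250 bases before to 50 bases after the RefSeq start on GRCh38.p14, 5′ to 3′ on the gene's strand (chr5:218070-218369, plus strand, and chr7:25125211-25125510, minus strand), with CpG dinucleotides in capitals.
SDHA: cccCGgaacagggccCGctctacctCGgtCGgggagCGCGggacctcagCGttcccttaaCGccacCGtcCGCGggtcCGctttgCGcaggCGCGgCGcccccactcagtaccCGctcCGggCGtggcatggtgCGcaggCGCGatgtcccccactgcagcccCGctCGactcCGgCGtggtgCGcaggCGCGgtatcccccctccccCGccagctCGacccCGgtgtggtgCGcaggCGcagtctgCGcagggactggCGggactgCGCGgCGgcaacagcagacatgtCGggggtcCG
CYCS: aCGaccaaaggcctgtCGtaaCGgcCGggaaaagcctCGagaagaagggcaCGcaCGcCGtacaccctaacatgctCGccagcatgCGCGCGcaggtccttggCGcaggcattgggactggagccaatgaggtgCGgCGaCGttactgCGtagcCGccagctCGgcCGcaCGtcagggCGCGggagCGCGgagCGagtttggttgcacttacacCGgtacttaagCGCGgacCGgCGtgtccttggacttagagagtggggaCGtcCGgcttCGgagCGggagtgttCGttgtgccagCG
SDHA has 41 CpG in these 300 bases and CYCS 37, where the median was 22.5 for the 66 subunit genes with an entry and 14 for all 27305 promoters listed.

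**Figure D4:**
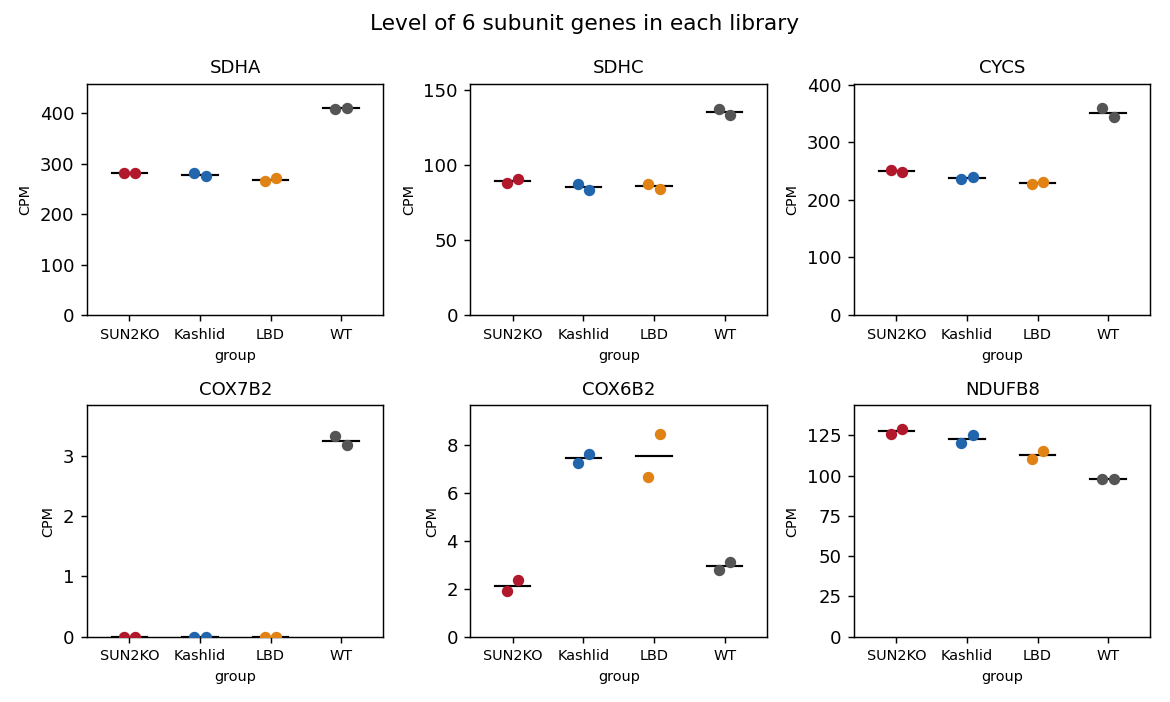
CPM (y axis, from 0) of SDHA, SDHC, CYCS, COX7B2, COX6B2 and NDUFB8 in each library, by group (x axis); points are libraries and lines their mean. SDHA, SDHC and CYCS are lower in all 6 modified libraries than in WT, COX7B2 is at 0 in them, COX6B2 is highest in Kashlid and LBD, and NDUFB8 is higher than WT in all 6.

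Complex IV, the terminal oxidase, held the tested subunit gene with the deepest fall in all 3 lines, COX7B2, and the one with the largest rise in Kashlid and LBD, COX6B2. Both are isoform genes best known from testis. COX7B2, the testis isoform of subunit VIIb (chromosome 4, 46736847 to 46911252 on hg19), had 0 and 0 counts in SUN2KO, 0 and 0 in Kashlid, 0 and 0 in LBD, against 56 and 56 in WT. It was thus not detected at this depth in any of the 6 modified libraries and present at 3.33 and 3.18 CPM in WT. Set against a floor of 3 counts over a group, it was at least 40.2-fold lower in SUN2KO, 37.2-fold lower in Kashlid and 36.9-fold lower in LBD than in WT (adjusted p = 7.14e-07, 6.12e-07 and 8.11e-07). Its widely expressed counterpart COX7B had 140.3 and 135 CPM in SUN2KO, 136 and 137 in Kashlid, 130.5 and 125 in LBD, against 141 and 138 in WT, and passed in no line. COX6B2, the testis isoform of subunit VIb (chromosome 19, 55861070 to 55866182), had 35 and 44 counts in SUN2KO, 125 and 130 in Kashlid, 115 and 141 in LBD, against 47 and 55 in WT. The 4 Kashlid and LBD libraries were above all others, and the SUN2KO libraries were the lowest. Against WT the change was -0.47 ± 0.25 in SUN2KO, 1.32 ± 0.21 in Kashlid and 1.34 ± 0.21 in LBD (log2 fold change over WT ± SE, adjusted p = 0.144, 3.15e-05 and 3.17e-05), so it rose in Kashlid and LBD. Against SUN2KO it was higher by 1.80 ± 0.22 (adjusted p = 4.89e-06) in Kashlid and by 1.82 ± 0.22 (adjusted p = 4.64e-06) in LBD. These calls held under every alternative tried. Its counterpart COX6B1 had 84.04 and 78.8 CPM in SUN2KO, 79.3 and 90.3 in Kashlid, 84.04 and 75.8 in LBD, against 83.2 and 76.9 in WT, and passed in no line (0.02 ± 0.07 in SUN2KO, 0.08 ± 0.07 in Kashlid and 0.00 ± 0.07 in LBD, adjusted p = 0.829, 0.381 and 0.987). The heart and muscle isoform gene COX6A2 had no count in any library, and COX8C, the testis isoform of subunit VIII, had 2 counts, both in Kashlid replicate 1. COX7A1, the muscle isoform of subunit VIIa, had 0.595 and 0.215 CPM in SUN2KO, 0.405 and 0.821 in Kashlid, 0.347 and 0.299 in LBD, against 0.297 and 0.398 in WT, and did not pass in any line.

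The start regions of these isoform genes are shown as above, COX7B2 at chr4:46909196-46909495 and COX6B2 at chr19:55354670-55354969, both on the minus strand of GRCh38.p14, with CpG in capitals.
COX7B2: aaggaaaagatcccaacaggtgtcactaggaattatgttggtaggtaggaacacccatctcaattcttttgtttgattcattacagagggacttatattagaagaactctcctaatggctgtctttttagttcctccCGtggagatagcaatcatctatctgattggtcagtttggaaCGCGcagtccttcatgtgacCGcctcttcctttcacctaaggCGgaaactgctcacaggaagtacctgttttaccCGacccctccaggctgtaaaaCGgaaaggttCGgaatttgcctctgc
COX6B2: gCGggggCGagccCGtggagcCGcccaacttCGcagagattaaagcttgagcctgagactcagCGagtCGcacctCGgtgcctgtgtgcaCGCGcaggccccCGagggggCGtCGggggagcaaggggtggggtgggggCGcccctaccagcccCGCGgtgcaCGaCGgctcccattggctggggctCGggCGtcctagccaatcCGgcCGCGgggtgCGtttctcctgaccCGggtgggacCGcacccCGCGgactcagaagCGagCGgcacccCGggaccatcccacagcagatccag
COX7B2 has 8 CpG in this window and COX6B2 31, so the gene without counts in the modified lines lies below the median of all promoters and COX6B2 above it.

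Among the widely expressed subunits of complex IV, both directions occurred. COX5A, a nuclear subunit on the matrix side of the oxidase, had 87.8 and 87.8 CPM in SUN2KO, 86.96 and 84 in Kashlid, 85.03 and 79.99 in LBD, against 112 and 109 in WT, with every modified library below WT. Its change was -0.33 ± 0.06 in SUN2KO, -0.37 ± 0.06 in Kashlid and -0.42 ± 0.06 in LBD (log2 fold change over WT ± SE, adjusted p = 0.00013, 2.78e-05 and 7.7e-06). NDUFA4, once assigned to complex I, had 115 and 115 CPM in SUN2KO, 115 and 109 in Kashlid, 102 and 108 in LBD, against 143 and 138 in WT, also without overlap with WT, and changed by -0.29 ± 0.06 in SUN2KO, -0.33 ± 0.06 in Kashlid and -0.42 ± 0.06 in LBD (adjusted p = 0.000403, 7.1e-05 and 5.27e-06). COX6C fell by 0.20, 0.30 and 0.36 on the log2 scale in SUN2KO, Kashlid and LBD (SE 0.07 each, adjusted p = 0.0201, 0.000948 and 0.000171). COX7C, a small membrane subunit, went the other way with 168 and 162 CPM in SUN2KO, 178 and 163 in Kashlid, 156 and 152 in LBD, against 130.2 and 134 in WT. All 6 modified libraries were above both WT libraries, and the change was 0.32 ± 0.06 in SUN2KO, 0.37 ± 0.06 in Kashlid and 0.22 ± 0.06 in LBD (log2 fold change over WT ± SE, adjusted p = 0.00013, 1.82e-05 and 0.00346). COX5B, the zinc-binding subunit, had 134 and 136 CPM in SUN2KO, 140 and 138 in Kashlid, 122 and 119.7 in LBD, against 119 and 121 in WT, so SUN2KO and Kashlid lay above WT and LBD did not. The rise was 0.17 ± 0.05 (adjusted p = 0.0173) in SUN2KO and 0.21 ± 0.05 (adjusted p = 0.00323) in Kashlid, while LBD stood at 0.01 ± 0.05 (adjusted p = 0.903). COX4I1, a core nuclear subunit that the symbol rule does not reach, averaged 265 ± 2.64 CPM in SUN2KO, 259 ± 0.953 in Kashlid, 244 ± 7.07 in LBD and 333 ± 9.50 in WT (SD, n = 2 each) and fell by 0.33, 0.36 and 0.45 on the log2 scale in SUN2KO, Kashlid and LBD.

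Complex V, the ATP synthase, fell across most of its parts. Its catalytic head is built from ATP5A1 (alpha), ATP5B (beta), ATP5C1 (gamma), ATP5D (delta) and ATP5E (epsilon). ATP5A1 had 539.9 and 522 CPM in SUN2KO, 479 and 487 in Kashlid, 495 and 473 in LBD, against 637 and 625 in WT, and the modified libraries did not overlap WT. The change was -0.25 ± 0.04 in SUN2KO, -0.39 ± 0.04 in Kashlid and -0.38 ± 0.04 in LBD (log2 fold change over WT ± SE, adjusted p = 0.000111, 3.82e-07 and 5.43e-07). ATP5B, the subunit that holds the catalytic site, had 1014 and 991 CPM in SUN2KO, 904 and 931 in Kashlid, 920.4 and 909.9 in LBD, against 1098 and 1080 in WT. It was again lowest in Kashlid and LBD, and changed by -0.12 ± 0.04 in SUN2KO, -0.25 ± 0.04 in Kashlid and -0.25 ± 0.04 in LBD (adjusted p = 0.0188, 2.51e-05 and 2.59e-05). ATP5C1, the rotating stalk of the head, changed by -0.36 ± 0.06 in SUN2KO, -0.37 ± 0.06 in Kashlid and -0.50 ± 0.06 in LBD (adjusted p = 0.000161, 7.51e-05 and 3.31e-06). ATP5D had 50.05 and 56.7 CPM in SUN2KO, 41.97 and 45.05 in Kashlid, 36.7 and 44.1 in LBD, against 65.7 and 48.2 in WT. The WT libraries of ATP5D differed widely from each other, and those of SUN2KO lay within their span. It fell in Kashlid, -0.39 ± 0.11 (adjusted p = 0.00761), and LBD, -0.49 ± 0.11 (adjusted p = 0.0014), calls that ended without WT replicate 1 (adjusted p = 0.336 and 0.094). ATP5E had 2 to 13 counts per library and was not tested. It lies within the read-through gene SLMO2-ATP5E, which had 0 counts everywhere, so how its reads were assigned is uncertain and its level here cannot be read as that of the subunit.

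Of the stalk and membrane subunits of complex V that passed, all but 1 were lower. ATP5J, coupling factor 6 of the outer stalk (chromosome 21, 27096791 to 27107965 on hg19), had 51.2 and 55.9 CPM in SUN2KO, 53.6 and 54.3 in Kashlid, 50.9 and 46.6 in LBD, against 69.7 and 67.9 in WT, with no overlap between the modified lines and WT. Its change was -0.36 ± 0.07 in SUN2KO, -0.35 ± 0.07 in Kashlid and -0.50 ± 0.07 in LBD (log2 fold change over WT ± SE, adjusted p = 0.000395, 0.000404 and 1.18e-05). ATP5O, the subunit that joins the stalk to the head, changed by -0.31 ± 0.05 in SUN2KO, -0.30 ± 0.06 in Kashlid and -0.29 ± 0.06 in LBD (adjusted p = 0.000125, 0.000147 and 0.000228), and its direction turned when set against its chromosome window. The membrane subunit ATP5J2 (f) stood at only 4.68 to 8.68 CPM and changed by -0.50 ± 0.17 in SUN2KO, -0.58 ± 0.18 in Kashlid and -0.67 ± 0.18 in LBD (adjusted p = 0.0288, 0.0115 and 0.00529). Like ATP5E it lies within a read-through gene at 0 counts, ATP5J2-PTCD1. ATP5I (e) changed by -0.31 ± 0.12 in SUN2KO, -0.34 ± 0.12 in Kashlid and -0.56 ± 0.12 in LBD (adjusted p = 0.0414, 0.0237 and 0.000709). Subunit c, the proton-carrying ring, is encoded by ATP5G1, ATP5G2 and ATP5G3, of which ATP5G3 fell in Kashlid, -0.21 ± 0.06 (adjusted p = 0.00362), and LBD, -0.29 ± 0.06 (adjusted p = 0.000343), and stood at -0.06 ± 0.06 (adjusted p = 0.417) in SUN2KO. Seen afterwards, ATP5G1 changed by -0.29 ± 0.07 in SUN2KO, -0.12 ± 0.07 in Kashlid and -0.25 ± 0.07 in LBD (adjusted p = 0.0016, 0.154 and 0.00416) and ATP5G2 by -0.07 ± 0.05 in SUN2KO, 0.02 ± 0.05 in Kashlid and -0.13 ± 0.05 in LBD (adjusted p = 0.278, 0.816 and 0.0381). ATP5H (d), another stalk subunit, was the exception with 152 and 151 CPM in SUN2KO, 148 and 139 in Kashlid, 139.5 and 138 in LBD, against 134 and 129 in WT. It rose in SUN2KO, 0.20 ± 0.05 (adjusted p = 0.00556), and did not pass in Kashlid, 0.13 ± 0.05 (adjusted p = 0.0617), or LBD, 0.08 ± 0.05 (adjusted p = 0.261).

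ATP5J lies head to head with GABPA, which encodes the DNA-binding part of nuclear respiratory factor 2, a known activator of many subunit genes, and the annotated genes overlap, so their reads may be shared. GABPA averaged 39.7 ± 0.183 CPM in SUN2KO, 38.4 ± 3.07 in Kashlid, 37.3 ± 1.79 in LBD and 49.9 ± 1.48 in WT (SD, n = 2 each) and changed by -0.33 ± 0.08 in SUN2KO, -0.38 ± 0.08 in Kashlid and -0.42 ± 0.08 in LBD (adjusted p = 0.00235, 0.000607 and 0.000262). The start region of ATP5J (chr21:25735005-25735304, minus strand, GRCh38.p14) is shown because of this pairing, with its match to the YY1 motif in capitals.
ATP5J: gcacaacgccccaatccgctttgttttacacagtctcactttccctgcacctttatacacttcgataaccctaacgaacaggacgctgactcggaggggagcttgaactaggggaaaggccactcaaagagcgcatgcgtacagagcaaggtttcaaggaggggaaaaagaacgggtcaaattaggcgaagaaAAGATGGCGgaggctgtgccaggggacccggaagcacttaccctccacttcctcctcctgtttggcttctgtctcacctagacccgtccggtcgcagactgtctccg
Start regions of this kind were available for 66 of the 84 genes and were searched on both strands for exact matches of 4 motifs of factors known to act on subunit genes. The 10-base NRF1 motif, a palindrome, was in 4 of 66, or 6.06%, against 1.36% of all 27305 promoters of the same length. CCGGAAGT (GABP) was in 9, or 13.6%, against 4.44%, and AAGATGGCG (YY1) in 8, or 12.1%, against 1.85%. TCAAGGTCA (ERRA) was in 1, SDHD, against 0.359%. No match of 1 motif shared bases with a match of another. Of the 20 tested genes with any match, 5, 4 and 10 were lower in SUN2KO, Kashlid and LBD, and of the 43 tested without one 15, 14 and 20, with no test made.

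Complex I, the largest complex, had falls in its electron-accepting arm and its membrane arm, and a few rises. NDUFS1, the largest subunit and a carrier of iron-sulfur clusters, had 231 and 213 CPM in SUN2KO, 204 and 193 in Kashlid, 198 and 194 in LBD, against 241 and 247 in WT. Kashlid and LBD lay below SUN2KO and WT, and SUN2KO below WT. The change was -0.14 ± 0.05 in SUN2KO, -0.30 ± 0.05 in Kashlid and -0.31 ± 0.05 in LBD (log2 fold change over WT ± SE, adjusted p = 0.044, 0.00011 and 7.16e-05). NDUFS7, another nuclear-encoded core subunit, picked after its values were seen, changed by -0.25 ± 0.07 in SUN2KO, -0.12 ± 0.07 in Kashlid and -0.24 ± 0.07 in LBD (adjusted p = 0.0108, 0.19 and 0.0144). NDUFV1, the subunit that binds NADH, NDUFS3 and NDUFS8 did not pass in any line. NDUFV2, an iron-sulfur subunit beside NDUFV1, fell in Kashlid, -0.15 ± 0.06 (adjusted p = 0.0482), at a p close to the threshold, and did not pass in SUN2KO, 0.04 ± 0.06 (adjusted p = 0.624), or LBD, -0.12 ± 0.06 (adjusted p = 0.13). NDUFS6, an accessory subunit of that arm, had 136 and 138 CPM in SUN2KO, 131 and 149.7 in Kashlid, 125 and 129 in LBD, against 169.7 and 161 in WT, all modified libraries below WT, and changed by -0.27 ± 0.06 in SUN2KO, -0.24 ± 0.06 in Kashlid and -0.38 ± 0.06 in LBD (adjusted p = 0.00129, 0.00317 and 4.19e-05). NDUFV3, NDUFA5 and NDUFA7 are accessory subunits of the same arm. NDUFV3 changed by -0.24 ± 0.09 in SUN2KO, -0.36 ± 0.09 in Kashlid and -0.24 ± 0.09 in LBD (adjusted p = 0.0399, 0.00273 and 0.0381) and NDUFA5 by -0.32 ± 0.06 in SUN2KO, -0.17 ± 0.06 in Kashlid and -0.34 ± 0.07 in LBD (adjusted p = 0.000548, 0.0356 and 0.000281), so both fell in each line. NDUFA7 changed by -0.35 ± 0.09 in SUN2KO, -0.14 ± 0.09 in Kashlid and -0.25 ± 0.09 in LBD (adjusted p = 0.0044, 0.219 and 0.0299) and did not pass in Kashlid.

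In the membrane arm NDUFB6 had 30.4 and 27.99 CPM in SUN2KO, 27.6 and 25.5 in Kashlid, 23.1 and 24.03 in LBD, against 36.1 and 34.9 in WT, with the LBD libraries lowest and no overlap with WT. Its change was -0.28 ± 0.09 in SUN2KO, -0.42 ± 0.09 in Kashlid and -0.59 ± 0.09 in LBD (log2 fold change over WT ± SE, adjusted p = 0.0152, 0.000676 and 2.51e-05). NDUFB2 showed the largest fitted fall of complex I with 6.82 and 4.46 CPM in SUN2KO, 3.64 and 5.34 in Kashlid, 5.09 and 4.78 in LBD, against 9.10 and 8.07 in WT, but it is a weakly counted gene that overlaps its antisense partner NDUFB2-AS1. That partner held 66, 52 and 61 counts over both libraries in SUN2KO, Kashlid and LBD and 86 in WT, and without a stated strand setting the pair's reads cannot be told apart. The change of NDUFB2 was -0.60 ± 0.21 in SUN2KO, -0.93 ± 0.22 in Kashlid and -0.80 ± 0.21 in LBD (log2 fold change over WT ± SE, adjusted p = 0.0267, 0.00141 and 0.00524), and in SUN2KO it did not pass in DESeq2 (adjusted p = 0.0931). NDUFA13, also known as GRIM-19, fell in LBD, -0.28 ± 0.06 (adjusted p = 0.000901), and stood at -0.05 ± 0.06 (adjusted p = 0.546) in SUN2KO and -0.14 ± 0.06 (adjusted p = 0.0757) in Kashlid.

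The rises in complex I were those of NDUFB8, NDUFB10, NDUFA12 and NDUFA9. NDUFB8, a membrane-arm subunit often used as a protein marker of assembled complex I (chromosome 10, 102283486 to 102289680 on hg19), had 126 and 129 CPM in SUN2KO, 120.3 and 125 in Kashlid, 110.3 and 116 in LBD, against 97.5 and 97.9 in WT. All modified libraries were above WT, SUN2KO the most, and the change was 0.38 ± 0.06 in SUN2KO, 0.33 ± 0.06 in Kashlid and 0.21 ± 0.06 in LBD (log2 fold change over WT ± SE, adjusted p = 1.69e-05, 6.72e-05 and 0.00561). NDUFB10, another subunit of that arm, had 99.95 and 98.4 CPM in SUN2KO, 91.1 and 112 in Kashlid, 99.9 and 95.6 in LBD, against 87.2 and 79.6 in WT, again above WT throughout, and changed by 0.25 ± 0.08 in SUN2KO, 0.29 ± 0.08 in Kashlid and 0.23 ± 0.08 in LBD (adjusted p = 0.0143, 0.00458 and 0.0224). NDUFA12 rose in SUN2KO, 0.22 ± 0.07 (adjusted p = 0.0136), and stood at 0.08 ± 0.07 (adjusted p = 0.35) in Kashlid and 0.08 ± 0.07 (adjusted p = 0.403) in LBD. NDUFA9, named after its values were seen, rose in SUN2KO by 0.21 ± 0.06 (adjusted p = 0.00787).

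In complex III most subunits did not pass. UQCRB, a small subunit next to a ubiquinone-binding site, had 143 and 140.5 CPM in SUN2KO, 128 and 137 in Kashlid, 125 and 123 in LBD, against 172 and 162 in WT, so all modified libraries lay below WT, and LBD was lowest. Its change was -0.24 ± 0.06 in SUN2KO, -0.33 ± 0.06 in Kashlid and -0.43 ± 0.06 in LBD (log2 fold change over WT ± SE, adjusted p = 0.00184, 5.31e-05 and 3.28e-06). CYC1, cytochrome c1, which hands electrons to cytochrome c, had 179 and 187 CPM in SUN2KO, 183 and 183 in Kashlid, 174 and 172 in LBD, against 212 and 198 in WT, and changed by -0.17 ± 0.05 in SUN2KO, -0.16 ± 0.05 in Kashlid and -0.24 ± 0.05 in LBD (adjusted p = 0.0164, 0.0145 and 0.000855). UQCRH, the hinge subunit at the cytochrome c1 side, fell in LBD, -0.16 ± 0.05 (adjusted p = 0.0148), and stood at -0.02 ± 0.05 (adjusted p = 0.806) in SUN2KO and -0.05 ± 0.05 (adjusted p = 0.411) in Kashlid. UQCRC2, a core subunit, rose in LBD, 0.15 ± 0.05 (adjusted p = 0.0251), with 175 and 176 CPM in SUN2KO, 174 and 169 in Kashlid, 183 and 178 in LBD, against 159 and 167 in WT. The other core subunit UQCRC1 and the Rieske iron-sulfur subunit UQCRFS1 did not pass in any line. UQCRHL and UQCRBP1 are near-copies of UQCRH and UQCRB, and their reads could be split with them. UQCRBP1, at 0 to 4 counts, was too low to test, as was ATP5L2, a near-copy of ATP5L, at 0 or 1 count.

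Many calls on single genes did not pass under every alternative. In DESeq2, 9 of 34 calls on subunit genes ended in SUN2KO, 5 of 33 in Kashlid and 10 of 46 in LBD, and with library size alone 0 of 34, 4 of 33 and 9 of 46. All-gene calls fell in DESeq2 too, from 2455 higher and 2682 lower to 1755 and 2101 in SUN2KO. In Kashlid they fell from 3047 and 3185 to 2336 and 2609, and in LBD from 2670 and 2941 to 1988 and 2321. With library size alone, fewer of all genes were lower and more higher in each line. All-gene calls over WT also fell when a library was left out. Among the genes named here, in SUN2KO the calls on NDUFA12 (0.057), NDUFB2 (0.0931), COX6C (0.0622), ATP5J2 (0.122), NDUFB6 (0.0585), NDUFV3 (0.128), ATP5I (0.135) and NDUFS1 (0.0584) ended in DESeq2, with its adjusted p in parentheses. In Kashlid those on NDUFA5 (0.0905), ATP5J2 (0.0588), ATP5I (0.085) and NDUFV2 (0.0986) ended, and in LBD those on NDUFA7 (0.0989), NDUFV3 (0.13), ATP5G2 (0.0619), ATP5L (0.093) and NDUFS7 (0.0532). Scaling by library size alone ended those on NDUFA5 (0.102), CYC1 (0.0535) and NDUFV2 (0.129) in Kashlid and on NDUFA7 (0.0563), NDUFV3 (0.0748), ATP5G2 (0.0977) and ATP5L (0.0751) in LBD. With no filter on low counts the calls on NDUFV3 (0.0527) in SUN2KO, NDUFV2 (0.0532) in Kashlid and NDUFV3 (0.0508) and ATP5G2 (0.0512) in LBD ended, and that on NDUFV2 in Kashlid also ended with the stricter filter and in a fit of Kashlid and WT alone. Of the calls on SDHA, SDHC, CYCS, COX7B2, COX7C, NDUFA4, ATP5A1 and ATP5J against WT, none ended when a library was left out.

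Leaving out a library ended other calls on the genes named, and the adjusted p in parentheses is that of the remaining libraries. In SUN2KO, SUN2KO replicate 1 decided NDUFB10 (0.0829), NDUFA12 (0.0638), CYC1 (0.171), COX5B (0.0529), COX6C (0.129), ATP5J2 (0.073), NDUFV3 (0.317), ATP5I (0.155), ATP5B (0.0555) and NDUFS7 (0.0714). SUN2KO replicate 2 decided NDUFB10 (0.0629), NDUFA12 (0.0612), NDUFB2 (0.327), NDUFA7 (0.0626), COX5B (0.0984), COX6C (0.0703), ATP5J2 (0.159), NDUFB6 (0.145), ATP5I (0.134), NDUFS1 (0.398), ATP5B (0.139) and NDUFS7 (0.0622). WT replicate 1 decided NDUFA12 (0.0734), NDUFB2 (0.158), CYC1 (0.217), COX5B (0.107), COX6C (0.0753), ATP5J2 (0.195), NDUFB6 (0.0956), NDUFV3 (0.0796), ATP5I (0.326), NDUFS1 (0.0991), ATP5B (0.128), ATP5G1 (0.0505) and NDUFS7 (0.082), and WT replicate 2 NDUFB10 (0.181), NDUFA12 (0.0782), NDUFB2 (0.0579), NDUFA7 (0.0916), COX5B (0.075), COX6C (0.102), ATP5H (0.0782), ATP5J2 (0.052), NDUFV3 (0.2), NDUFS1 (0.194) and NDUFA9 (0.112). In Kashlid, replicate 1 decided NDUFA5 (0.125), ATP5J2 (0.0586), NDUFS6 (0.0659), ATP5I (0.245) and NDUFV2 (0.336), and replicate 2 NDUFB10 (0.155) and NDUFA5 (0.0523). There WT replicate 1 decided NDUFA5 (0.186), CYC1 (0.204), ATP5J2 (0.109), ATP5D (0.336), NDUFS6 (0.0512), ATP5I (0.236) and NDUFV2 (0.136), and WT replicate 2 NDUFB10 (0.0817), NDUFA5 (0.0777) and NDUFV2 (0.162). In LBD, replicate 1 decided NDUFB10 (0.126), NDUFA7 (0.0837), ATP5J2 (0.0683), NDUFV3 (0.195), UQCRC2 (0.127), ATP5G2 (0.0662), ATP5L (0.0721) and NDUFS7 (0.205), and replicate 2 NDUFB8 (0.0617), NDUFA7 (0.134), NDUFV3 (0.0741), UQCRH (0.164), ATP5G2 (0.225) and ATP5L (0.169). There WT replicate 1 decided NDUFB2 (0.0526), ATP5J2 (0.0659), NDUFV3 (0.0756), ATP5D (0.094), UQCRC2 (0.212), UQCRH (0.0806), ATP5G1 (0.0959), ATP5G2 (0.178), ATP5L (0.216) and NDUFS7 (0.0974), and WT replicate 2 NDUFB10 (0.211), NDUFA7 (0.304), NDUFV3 (0.201), UQCRH (0.0671), ATP5G2 (0.103) and ATP5L (0.0551).

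Comparing the modified lines with each other asks whether the truncations differ from the knockout, without the WT libraries setting the difference. Few subunit genes passed. Kashlid had 4 genes lower and 1 higher than SUN2KO, where 18.0% of all genes were called, 9.13% lower and 8.92% higher. These were ATP5A1 (-0.14 ± 0.04, adjusted p = 0.0314), ATP5B (-0.13 ± 0.04, adjusted p = 0.0243), NDUFS1 (-0.16 ± 0.05, adjusted p = 0.0407) and NDUFV2 (-0.19 ± 0.06, adjusted p = 0.029), with COX6B2 the gene that rose. Scaled by library size alone, 4 were higher and 0 lower. The falls of ATP5A1, ATP5B, NDUFS1 and NDUFV2 kept their direction but no longer passed (adjusted p = 0.0849, 0.071, 0.0984 and 0.0662). With library size alone, 1574 of all genes were higher and 996 lower, against 1250 and 1279 in the main fit. With median-ratio factors all 5 calls on subunit genes were kept, while 2 ended in DESeq2 and 4 in a fit of those 2 groups alone. Apart from COX6B2, which genes passed in this comparison thus depends on the processing. LBD had 11 lower and 1 higher than SUN2KO, against 13.5% of all genes called, 6.79% lower and 6.69% higher. The 11 had log2 fold changes from -0.40 for ATP5D to -0.13 for ATP5B. Among them were ATP5G3 (-0.23 ± 0.06, adjusted p = 0.0088), COX7A2 of complex IV (-0.23 ± 0.06, adjusted p = 0.0115), NDUFA13 (-0.23 ± 0.06, adjusted p = 0.0136) and NDUFB6 (-0.31 ± 0.09, adjusted p = 0.0281). The 12 calls became 6 in DESeq2 and 6 with library size alone. All-gene calls went from 938 higher and 952 lower to 630 and 616 in DESeq2. With library size alone they were 1128 and 718. Without any one of the 4 libraries compared, fewer subunit genes passed, and fewer of all genes did too. LBD against Kashlid gave 0 higher and 1 lower, COX5B (-0.20 ± 0.05, adjusted p = 0.0479), against 2.91% of all genes called, 1.63% higher and 1.28% lower. That call was lost with median-ratio factors. The medians over the 79 genes were -0.02 for Kashlid against SUN2KO, -0.12 for LBD against SUN2KO and -0.08 for LBD against Kashlid, with all genes at 0.01, 0.00 and -0.01. COX7B2 was at 0 in all 3 lines and gives no fold between them.

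Whole chromosome stretches differed between the modified lines and WT, and on some chromosomes the subunit genes shifted in the same direction. All 5 tested subunit genes of chromosome 7 (ATP5J2, CYCS, NDUFA4, NDUFA5 and NDUFB2) and all 3 of chromosome 21 (ATP5J, ATP5O and NDUFV3) were lower in each line. The medians of all tested genes of chromosome 7 were -0.29, -0.24 and -0.22 in SUN2KO, Kashlid and LBD, and those of chromosome 21 were -0.36, -0.38 and -0.39. On chromosome 8, with medians of -0.24, -0.24 and -0.26, COX6C, CYC1 and UQCRB were lower in each line and NDUFB9 in Kashlid and LBD, with NDUFB9 at -0.15 ± 0.06 (adjusted p = 0.0655) in SUN2KO. On others they did not: on chromosomes 3, 14, 19, 22 and X the median of the subunit genes was below 0 and that of all tested genes above 0 in each line. Chromosome 19, with 12 tested subunit genes, had medians of -0.07, -0.05 and -0.13 for these in SUN2KO, Kashlid and LBD, where all its tested genes had 0.06, 0.11 and 0.08. Medians over 5 Mb windows with at least 15 tested genes were available for 69 of the 79 subunit genes. Across these genes the fold change and its window median had a Pearson r of 0.663 in SUN2KO, 0.576 in Kashlid and 0.584 in LBD (Spearman's rho 0.643, 0.618 and 0.67). Genes in 1 window share it and all share the same libraries, so these are descriptions with no test.

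With the window median taken out, 19 subunit genes were lower and 3 higher in SUN2KO, 24 lower and 4 higher in Kashlid, and 33 lower and 2 higher in LBD. Of all tested genes, 14.6%, 20.5% and 17.6% were then lower in SUN2KO, Kashlid and LBD, and 12.5%, 17.7% and 14.5% higher. Of the calls made without it, 18 of 34, 22 of 33 and 29 of 46 were made again in the same direction. SDHA, whose window stood at -0.31, -0.31 and -0.34 in SUN2KO, Kashlid and LBD, kept -0.23, -0.25 and -0.28 (adjusted p = 0.000452, 0.00017 and 6.31e-05). SDHC, with a window at -0.07, -0.03 and -0.12, kept -0.53, -0.64 and -0.54 (adjusted p = 5.15e-07, 2.31e-08 and 3.36e-07), and CYCS, at -0.13, -0.13 and -0.15, kept -0.36, -0.43 and -0.46 (adjusted p = 5.54e-06, 3.06e-07 and 1.6e-07). COX6B2 in Kashlid and LBD also kept its rise, at 1.08 and 1.15. Other genes no longer passed, or turned, once the window median was taken out. NDUFB8 had a window at 0.32, 0.37 and 0.35 and was left at 0.06, -0.04 and -0.14 (adjusted p = 0.493, 0.614 and 0.0604). COX5A, at -0.27, -0.39 and -0.39, was left at -0.06, 0.02 and -0.04 (adjusted p = 0.487, 0.882 and 0.692), and NDUFS6, at -0.31, -0.31 and -0.34, at 0.04, 0.07 and -0.04 (adjusted p = 0.717, 0.355 and 0.654). COX6C (adjusted p = 0.81, 0.664 and 0.579) and CYC1 (adjusted p = 0.888, 0.703 and 0.172) also no longer passed in SUN2KO, Kashlid or LBD. NDUFV3, with a window at -0.42, -0.45 and -0.38, turned to 0.18, 0.09 and 0.14 (adjusted p = 0.147, 0.453 and 0.265). ATP5O, at -0.39, -0.45 and -0.42, turned to 0.07, 0.15 and 0.13 (adjusted p = 0.342, 0.0332 and 0.0737), and in Kashlid it was the 1 call that passed in the opposite direction. ATP5H turned the other way, its window being at 0.25, 0.28 and 0.32, and was lower than its surroundings at -0.05, -0.15 and -0.24 (adjusted p = 0.571, 0.0359 and 0.00173). Further calls ended in SUN2KO (adjusted p in parentheses) on NDUFA12 (0.881), NDUFB2 (0.738), UQCRB (0.092), COX5B (0.809), ATP5J2 (0.379), ATP5C1 (0.484) and NDUFA9 (0.731), and on ATP5I. In Kashlid they ended on NDUFB10 (0.071), ATP5J2 (0.118), ATP5I (0.909) and NDUFB9 (0.499). In LBD they ended on NDUFB10 (0.128), NDUFB2 (0.0588), ATP5J2 (0.0554), UQCRC2 (0.282), UQCRH (0.463), ATP5I (0.141) and NDUFB9 (0.484). Genes without a window, among them COX7C, NDUFA4, NDUFA5, ATP5A1, ATP5J and COX7B2, kept the same values.

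**Figure D5:**
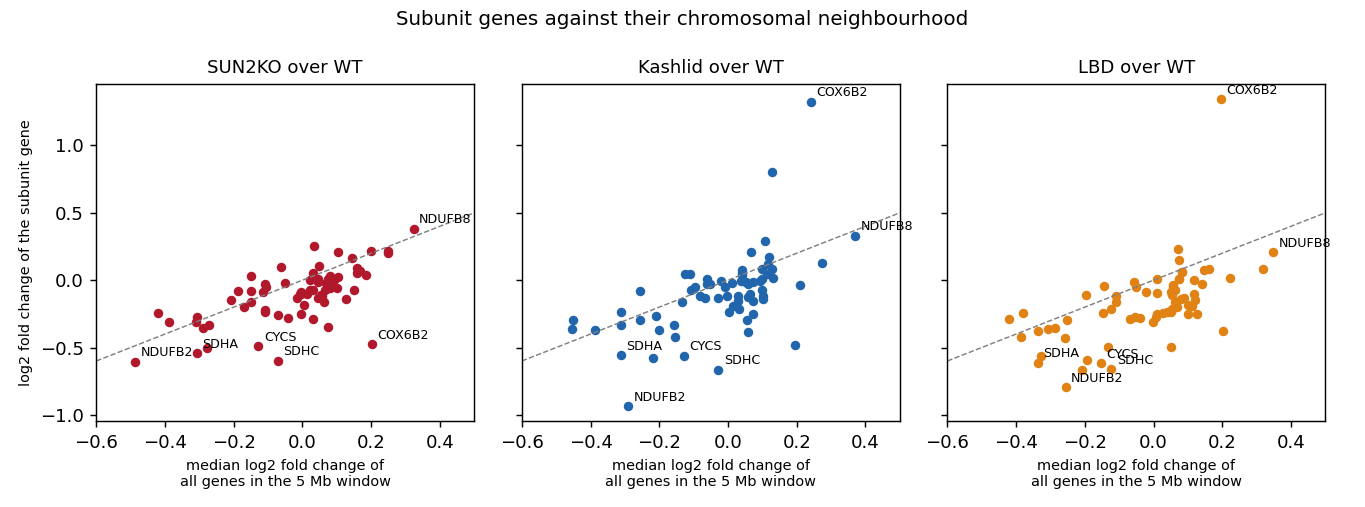
Log2 fold change over WT of each subunit gene (y axis) against the median log2 fold change of all tested genes in its 5 Mb window (x axis), for SUN2KO, Kashlid and LBD from left to right, with the dashed line marking equal values; the 69 genes with a window are shown. NDUFB8 lies near the line, while SDHA, SDHC and CYCS lie below it and COX6B2 lies above it in Kashlid and LBD.

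Related gene groups did not all follow the subunits. Of 6 tested subunits and associated proteins that the symbol rule does not reach, 1 rose and 2 fell in SUN2KO, 1 rose and 2 fell in Kashlid and 0 rose and 3 fell in LBD (medians -0.08, -0.12 and -0.19). The shares lower were 33.3%, 33.3% and 50%, beside 19.1%, 22.7% and 21.0% of all tested genes. USMG5, a small membrane protein of the ATP synthase, was the one that rose, by 0.44 ± 0.08 (adjusted p = 0.000231) in SUN2KO and 0.33 ± 0.08 (adjusted p = 0.00292) in Kashlid. Of 43 assembly factors, 5 rose and 8 fell in SUN2KO, 4 rose and 8 fell in Kashlid and 4 rose and 12 fell in LBD (medians -0.07, 0.00 and -0.06), shares at or below the background in SUN2KO and Kashlid. COX18, which inserts the mitochondrially encoded COX2 into the membrane, changed by -0.64 ± 0.10 in SUN2KO, -0.57 ± 0.10 in Kashlid and -0.66 ± 0.10 in LBD (adjusted p = 4.01e-05, 9.57e-05 and 2.5e-05), and COA6, a copper-delivery factor of complex IV, changed by 0.35 ± 0.08 in SUN2KO, 0.42 ± 0.08 in Kashlid and 0.26 ± 0.08 in LBD (adjusted p = 0.00129, 0.000217 and 0.0145).

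The enzymes of the citric acid cycle, which feed the chain with NADH and succinate, were mostly lower. Of 14 tested, 1 rose and 9 fell in SUN2KO, 2 rose and 9 fell in Kashlid and 1 rose and 10 fell in LBD (medians -0.26, -0.30 and -0.25). Thus 64.3%, 64.3% and 71.4% of them were lower in SUN2KO, Kashlid and LBD, beside 19.1%, 22.7% and 21.0% of all tested genes. The shares higher were 7.14%, 14.3% and 7.14%, beside 17.5%, 21.7% and 19.0%. DLD, the lipoamide dehydrogenase shared by several dehydrogenase complexes, averaged 90.4 ± 4.61 CPM in SUN2KO, 87.1 ± 0.311 in Kashlid, 89.4 ± 2.31 in LBD and 131 ± 4.78 in WT (SD, n = 2 each), and in LBD changed by -0.55 ± 0.06 (adjusted p = 2.55e-07). OGDH, the oxoglutarate dehydrogenase, fell in Kashlid by 0.67 on the log2 scale (adjusted p = 8.48e-10), and IDH2, the mitochondrial NADP-dependent isocitrate dehydrogenase, in LBD by 0.77 (adjusted p = 3.38e-06). OGDH averaged 323, 276 and 308 CPM in SUN2KO, Kashlid and LBD and 440 in WT. IDH2 averaged 30.8, 32.1 and 29.1 CPM and 49.45 in WT. In SUN2KO, DLD changed by -0.537 (adjusted p = 4.39e-07) and IDH2 by -0.685 (adjusted p = 1.33e-05). SUCLA2, a subunit of succinyl-CoA ligase, rose in each line, by 0.27 ± 0.06 in SUN2KO, 0.25 ± 0.06 in Kashlid and 0.21 ± 0.06 in LBD (adjusted p = 0.00107, 0.00193 and 0.00777).

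Proteins of the mitochondrial ribosome, which translates the mitochondrially encoded subunits, were near balance. Of 76 tested, 12 rose and 11 fell in SUN2KO, 10 rose and 15 fell in Kashlid and 12 rose and 15 fell in LBD (medians 0.00, 0.00 and -0.02), shares below the background in both directions. MRPS33 had the deepest fall of the list in each line, at 10.1 ± 0.14 CPM in SUN2KO, 10.02 ± 1.34 in Kashlid, 10.1 ± 1.09 in LBD and 21.9 ± 0.406 in WT (SD, n = 2 each), with log2 fold changes of -1.12 ± 0.13 in SUN2KO, -1.13 ± 0.13 in Kashlid and -1.12 ± 0.13 in LBD (adjusted p = 6.55e-07, 4.56e-07 and 6.6e-07). Cytosolic ribosomal proteins went the other way from the subunits in SUN2KO and Kashlid: of 81 tested, 52 rose and 4 fell in SUN2KO, 51 rose and 6 fell in Kashlid and 23 rose and 15 fell in LBD (medians 0.17, 0.21 and 0.04). In SUN2KO, Kashlid and LBD 64.2%, 63% and 28.4% of them rose, beside 17.5%, 21.7% and 19.0% of all tested genes. The shares that fell were 4.94%, 7.41% and 18.5%, beside 19.1%, 22.7% and 21.0%. In LBD 37 of them (45.7%) were lower than in SUN2KO and 35 (43.2%) lower than in Kashlid, with 0 higher in either. Of all tested genes 6.79% and 1.28% were lower there, and of the subunit genes 11 (13.9%) and 1 (1.27%).

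Of 16 factors that control mitochondrial gene expression, 5 rose and 4 fell in SUN2KO, 6 rose and 4 fell in Kashlid and 5 rose and 4 fell in LBD (medians -0.01, 0.05 and 0.00). The shares that rose were 31.2%, 37.5% and 31.2%, beside 17.5%, 21.7% and 19.0% of all tested genes. In each line 25% fell, beside 19.1%, 22.7% and 21.0%. PPARGC1A, the coactivator known as PGC-1 alpha and a known inducer of subunit genes, averaged 21.5 ± 1.61 CPM in SUN2KO, 23.4 ± 4.58 in Kashlid, 18.1 ± 1.91 in LBD and 38.8 ± 1.34 in WT (SD, n = 2 each), and changed by -0.85 ± 0.11 in SUN2KO, -0.73 ± 0.11 in Kashlid and -1.10 ± 0.12 in LBD (adjusted p = 5.58e-06, 2.33e-05 and 2.37e-07). MYC, which also acts on mitochondrial genes, averaged 398 ± 26.3 CPM in SUN2KO, 577 ± 65.8 in Kashlid, 472 ± 9.49 in LBD and 272 ± 3.19 in WT and rose by 0.55 ± 0.06 in SUN2KO, 1.08 ± 0.06 in Kashlid and 0.79 ± 0.06 in LBD (adjusted p = 5.48e-07, 1.75e-11 and 2.17e-09). C10orf2, the mitochondrial DNA helicase Twinkle, rose by 0.60 ± 0.06 in SUN2KO, 0.56 ± 0.06 in Kashlid and 0.54 ± 0.06 in LBD (adjusted p = 1.6e-07, 2.45e-07 and 5.66e-07). Whether these factors bear on the subunit genes was not tested.

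Between genes, levels per kilobase of transcript in WT ranged widely within a complex (CPM per kb, from the median length of GENCODE 29 coding transcripts). ATP5B was the highest of the 83 genes with a length, at 592, followed by UQCRH at 388, COX6A1 at 364 and CYCS at 361. In complex II, SDHC and SDHA, the genes that fell, were at 294 and 194, and SDHB and SDHD at 95.9 and 86.9. The gap between SDHC and SDHB depends on the length used, 460 bases for SDHC and 1153 for SDHB. Without it, WT averaged 135.2 CPM for SDHC and 110.5 for SDHB. At an adjusted p under 0.05, the authors' deposited DESeq2 results had 6 subunit genes higher and 18 lower in SUN2KO, and 5 higher and 21 lower in Kashlid. In LBD they had 4 higher and 29 lower. The share of all genes called in them was not counted. Each of these 24, 26 and 33 was also called here in the same direction, from the same libraries.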

How the data were processed

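Total RNA of MDA-MB-231 cells was sequenced as paired ends after NEBNext Ultra library preparation, per the labels' protocols. Per the submitters' processing notes, the authors used Trim Galore, STAR 2.7.1a, bedtools 2.24.0, HTSeq and DESeq2 with genome build hg19. Which annotation and strand setting were used is not given in the sources used here. Near-copies and genes that overlap another, as 20 of the 84 subunit genes do, are therefore uncertain. The deposited counts are raw reads per gene. The authors' 3 deposited tables hold log2 fold changes, p-values and adjusted p-values for each modified line over WT, and 5 unnamed columns of each were not used.

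The tests used edgeR 4.0.16 under R 4.3.3 (filterByExpr, TMM factors, quasi-likelihood test, 1 term per group over all 8 libraries, 4 residual degrees of freedom, two-sided, Benjamini-Hochberg over 14016 genes). Fold changes are log2 with SE, and CPM has the SD of 2 libraries. Replicates differed by more than counting noise (chi-square per degree of freedom 2.51 to 5.60), so no library is a copy. Same-numbered libraries did not deviate together (correlations -0.01 to 0.08). Named members of each complex were the 3 largest passing rises and falls over WT and the 2 largest between modified lines, at a mean of at least 5 CPM, with complex II, CYC1, CYCS and every untested member, and up to 2 each way per related list. A floor of 3 counts over a group bounds folds against 0, and covers counting error only. Promoters are from RefSeq, GRCh38.p14. The members, lists and alternatives were chosen with earlier results of these data known. The steps were tested on simulated data. Values of 1 complex I gene are not reported here, though it enters the counts. Alternatives were DESeq2 1.42.0, other scaling (median-ratio factors, or library size only), another filter (none, or 5 CPM in 2 libraries), the 2 groups alone, a replicate block, a window offset and leaving out each library.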

Additional observations from a re-analysis of the deposited data

How the results depend on the processing

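Counts of subunit genes called moved by over 1.5 times mainly in the comparisons between the modified lines, and less often over WT. With the window offset, 22 were called in SUN2KO over WT, against 34. In Kashlid over SUN2KO the count of 5 became 3 in DESeq2 and 2 in a fit of those groups alone. All-gene calls there went from 1250 higher and 1279 lower to 802 and 913, and to 1054 and 1074. In LBD over SUN2KO the count of 12 became 6 with library size only and 6 in DESeq2, with the all-gene counts given above. In LBD over Kashlid the count of 1 became 0 with median-ratio factors and 0 in a fit of those groups alone, the call being COX5B. Leaving out 1 library gave 20 to 23 calls in SUN2KO, 25 to 33 in Kashlid and 30 to 36 in LBD over WT, 1 to 5 in Kashlid over SUN2KO, 3 each time in LBD over SUN2KO and 0 to 3 in LBD over Kashlid. Over WT, fewer of all genes were also called each time a library was left out. Apart from the alternatives' own construction, the cause of the moves in subunit counts was not tested. No other alternative moved a count by that much. With the replicate block, 34, 34 and 47 genes were called over WT in SUN2KO, Kashlid and LBD, and 5, 14 and 1 between the lines.

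Of the named members called, 9 of 32 in SUN2KO, 17 of 31 in Kashlid and 17 of 37 in LBD passed under every alternative. Of these, 6, 5 and 6 have no window, so the window offset could not change them. Directions turned with the window offset, whose log2 values were ATP5H -0.048, NDUFV3 0.180, NDUFS6 0.037, ATP5I 0.002, ATP5O 0.075, NDUFA9 -0.035 in SUN2KO, NDUFB8 -0.041, COX5A 0.016, ATP5H -0.148, NDUFV3 0.094, NDUFS6 0.075, ATP5O 0.151 in Kashlid and NDUFB8 -0.142, ATP5H -0.240, NDUFV3 0.139, ATP5O 0.131 in LBD. With 2 libraries per group, small changes of weakly counted genes such as NDUFB2 and ATP5J2 are the least certain.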

Other observations

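The genes around the changed isoform genes were looked at for their own values. Around COX7B2, within 1500 kb, NIPAL1, a magnesium transporter, had 58 and 45 counts in SUN2KO, 58 and 62 in Kashlid, 45 and 43 in LBD, against 17 and 15 in WT, and its log2 fold change over WT was 1.57 in SUN2KO, 1.90 in Kashlid and 1.47 in LBD (adjusted p = 0.000548, 4.19e-05 and 0.00105). It thus rose in every modified line, while COX7B2 was at 0. SLAIN2, a microtubule-associated protein, had 863 and 794 counts in SUN2KO, 861 and 709 in Kashlid, 781 and 698 in LBD, against 921 and 914 in WT and changed by -0.26 in SUN2KO, -0.22 in Kashlid and -0.29 in LBD (adjusted p = 0.0227, 0.0389 and 0.00912). The GABA receptor genes GABRG1, GABRA2, GABRA4 and GABRB1, which flank COX7B2, had 0 or 1 count in every library.

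Within 100 kb of COX6B2, and beyond the untested gene FAM71E2, lies IL11, which encodes the cytokine interleukin 11 (chromosome 19, 55875750 to 55881831 on hg19). IL11 had 191 and 176 counts in SUN2KO, 535 and 297 in Kashlid, 315 and 386 in LBD, against 246 and 269 in WT. Its log2 fold change over WT was -0.60 in SUN2KO, 0.69 in Kashlid and 0.46 in LBD (adjusted p = 0.0214, 0.00338 and 0.0473), so it fell in SUN2KO and rose in Kashlid and LBD. RPL28, a ribosomal protein gene farther along, had log2 fold changes of 0.11 in SUN2KO, 0.28 in Kashlid and 0.09 in LBD (adjusted p = 0.0558, 2.62e-05 and 0.124). SUV420H2, the nearest tested gene on the other side of COX6B2, had 0.23, 0.34 and 0.32 (adjusted p = 0.0859, 0.0102 and 0.0166). UBE2S, beyond RPL28, had 0.00, -0.30 and -0.16 (adjusted p = 0.989, 0.00966 and 0.158). These genes were chosen for their position and after their values were seen. Whether neighbours share their control was not tested.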
